A study of Mus musculus with 4 samples.

Results

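The 10 genes described here make, bind and remove poly(A) tails: Pabpc1, Pabpc4 and Pabpn1 encode poly(A)-binding proteins, Paip1 and Paip2 their regulators, Papola and Papolg poly(A) polymerases, and Pan2, Pan3 and Parn deadenylases. They were taken by name, and the members are 10 of the 48858 genes to which transcripts were joined. RNA came from sorted mouse naive CD4 T cells, resting helper T cells that had not met antigen. The sort kept TCRb+ CD4+ cells that were CD25-, CD62L high and CD44 low, and libraries were made from total RNA after rRNA depletion. There were 2 double-knockout libraries (DKO), whose mice had genotype Btg1f/f Btg2f/f-CD4-Cre, and 2 wild-type libraries (WT), from littermates with Btg1f/f Btg2f/f and no Cre. Both groups thus carry loxP-flanked Btg1 and Btg2. Cre under Cd4 control acts from the thymus on, and not only in the sorted cells. The protocol speaks of pairs of mice and the libraries of a group were taken as separate animals. The p-values rest on the spread between these libraries, and the tests used borrow part of each gene's spread from other genes.

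Most messenger RNAs receive a poly(A) tail in the nucleus, where PABPN1 binds the growing tail and stimulates the poly(A) polymerase. In the cytoplasm PABPC proteins coat the tail, bind initiation factor eIF4G at the cap and recruit deadenylases. PAN2-PAN3 is known to trim long tails first and CCR4-NOT to remove most of the rest, and BTG1, BTG2 and TOB proteins bind the CNOT7 and CNOT8 nucleases of CCR4-NOT. BTG2 has been reported to bind PABPC1 in human cells. The comparison asks whether the RNAs of this machinery differ when both Btg genes are removed from resting T cells.

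The Pabpc1 and Pabpc4 transcripts carry A-rich stretches in their 5′ untranslated regions (UTRs). In human PABPC1 such a stretch is bound by the protein itself and limits its translation, so the mouse windows are shown, each being the 30 bases of the 5′ UTR with most A. Capitals mark runs of at least 3 A. The Pabpc1 window is chr15:36608840-36608869 (minus strand, bases 105 to 134 of Pabpc1-201), and the Pabpc4 window is chr4:123282891-123282920 (plus strand, bases 67 to 96 of Pabpc4-204), from GENCODE M21 transcripts on GRCm38.
Pabpc1 A-rich window: gAAAAAAcccAAAAAAAAtttacAAAAAAA
Pabpc4 A-rich window: tAAAAAAAAAAAAAAgAAAAgAAAAgaaga
The Pabpc1 window holds 22 A and the Pabpc4 window 25 A. Among 9992 tested protein-coding genes with a 5′ UTR of at least 30 bases, 0.721% had a window with as many A as Pabpc1 and 0.24% as many as Pabpc4. The windows of Papolg, Pan2, Pan3, Parn, Paip1 and Paip2 held 14, 11, 14, 5, 13 and 13 A, and that of a short Papola transcript 7. The Pabpn1 transcript read here has a 5′ UTR of 8 bases and gave no window.

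**Figure D1:**
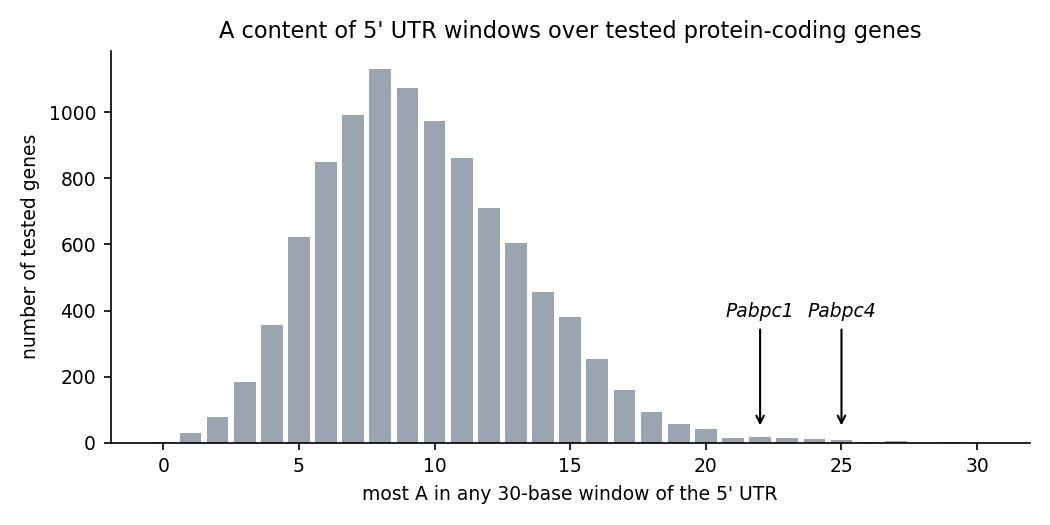
Number of tested protein-coding genes (vertical axis) by the largest number of A in any 30-base window of the 5′ UTR (horizontal axis); arrows mark Pabpc1 at 22 A and Pabpc4 at 25 A. Both lie in the right tail, where 0.721% and 0.24% of the 9992 genes have as many A.

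The first bases of the same transcripts differ as well. Messenger RNAs that start with C followed by an unbroken pyrimidine run are known as TOP mRNAs, a class that includes human PABPC1 and whose translation follows growth signals. Capitals mark such a run from the first base of chr15:36608954-36608973 (minus strand, Pabpc1) and chr4:123282825-123282844 (plus strand, Pabpc4).
Pabpc1 first 20 bases: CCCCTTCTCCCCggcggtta
Pabpc4 first 20 bases: gggctcagcacgcctgaagc
The annotated Pabpc1 start opens with a run of 12 pyrimidines and that of Pabpc4 with none. Of 10678 tested protein-coding genes, 2.46% had a transcript that began with C and at least 4 more C or T on the sense strand. The start of these RNAs was not measured in the libraries, so this describes the annotation.

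Poly(A) tails are added downstream of a poly(A) signal, most often AATAAA, less often ATTAAA. The last 30 bases of 6 annotated transcripts show where it lies (capitals, sense strand). The stretches are chr15:36595661-36595690 (minus strand, Pabpc1), chr4:123298896-123298925 (plus, Pabpc4), chr13:119457362-119457391 (plus, Paip1), chr10:128321324-128321353 (plus, Pan2), chr5:147548473-147548502 (plus, Pan3) and chr16:13537960-13537989 (minus, Parn).
Pabpc1 end: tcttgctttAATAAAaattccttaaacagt
Pabpc4 end: taAATAAAtttactttcccttttggttttt
Paip1-202 end: ttttgaAATAAAtgaaatgttgaaagaaaa
Pan2 end: aAATAAAagtatttttatctcattagaaaa
Pan3 end: ttAATAAAgaattgcagaAATAAActtgta
Parn end: aaagctgaaATTAAAgaaaatttcctagaa
AATAAA lay in the last 50 bases of 63.3% of the 10678 tested protein-coding genes, and either hexamer in 77.8%. Pabpn1 and Papolg had neither hexamer in the last 50 bases of the transcripts read. The 3′ UTRs were 439 bases in Pabpc1 and 425 in Pabpc4, short beside the median of 996 over tested genes, while their 5′ UTRs of 467 and 790 bases were long beside the median of 162.

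The libraries held 16567226 and 17827631 estimated counts in DKO, against 14970076 and 13889894 in WT. Btg1 had 103 and 125 estimated counts in DKO and 7378 and 5443 in WT, and Btg2 had 5 and 7 in DKO and 1295 and 1067 in WT. Both fell in DKO by edgeR's quasi-likelihood test (Benjamini-Hochberg adjusted p = 1.4e-06 and 8.8e-07). All 11 CD4 T cell markers passed the filter on low counts, with summed levels of 3836 and 3743 CPM (counts scaled to a library of 1000000) in DKO and 3291 and 3942 in WT. The 6 regulatory T cell markers summed to 46.5 and 63.1 CPM in DKO against 25.8 and 29.2 in WT, and the 4 CD8 T cell markers to 31.1 and 34.4 against 16.5 and 17.4. Of the regulatory T cell markers, Ctla4 overlapped, at 3.18 and 3.97 CPM in DKO and 3.37 and 3.54 in WT. The rest of that list lay above WT in both DKO libraries. Of the CD8 markers, Cd8a was very low and overlapped, at 0.0589 and 0.231 CPM in DKO and 0.431 and 0.0863 in WT. Cd8b1, Ctsw and Klrd1 lay above WT in both DKO libraries, Ctsw at 17.2 and 17.5 against 7.39 and 7.86 CPM. B cell, myeloid, NK and red cell markers summed to at most 5.10 CPM in any library, with Ncr1, an NK cell marker, at 0. Nuclear protein-coding genes took 35.4 and 40.4% of the counts in DKO against 30.7 and 30.4% in WT, and the mean fragment length implied by the effective lengths was 133 and 142 bases against 124 and 120. The part of these differences in the values below was not tested. In bulk RNA, fewer cells of a type and less RNA per cell cannot be told apart.

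All 10 genes had counts in every library, the fewest being 95. Per length, Pabpc1 stood far above the others and the catalytic subunit Pan2 lowest, in both genotypes. Levels between genes are given in TPM, which accounts for transcript length, rescaled to a sum of 1000000 over nuclear protein-coding genes without Lars2. Pabpc1 had 1650 and 1449 TPM in DKO and 1685 and 1497 in WT, which ranked it 116th of 10733 tested protein-coding genes by its mean. Pabpn1 followed with 238 to 271 TPM over the 4 libraries. Papola had 157 to 236, Paip2 164 to 212, Pan3 97.6 to 165 and Paip1 57.5 to 98.6 TPM. Across libraries, neighbours among these 4 overlapped. Pabpc4 at 37.9 to 57.2 and Parn at 36.0 to 42.2 TPM also overlapped. Papolg lay below them at 12.7 to 26.0 TPM and Pan2 at 7.05 to 12.4 TPM, rank 7514. Of the summed counts of the 10 genes, Pabpc1 alone took 69.4 and 66.7% in DKO and 68.8 and 69.9% in WT.

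**Figure D2:**
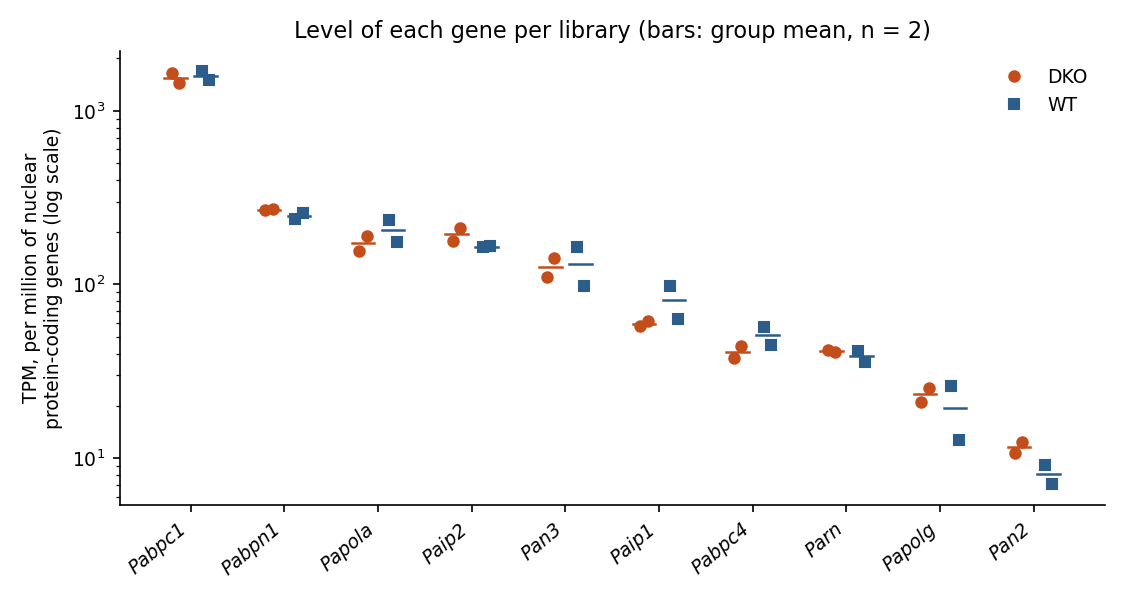
Level of each gene in each library in TPM of nuclear protein-coding genes on a log axis, with DKO circles left of WT squares and bars at the group means (n = 2 each). Pabpc1 lies between 1449 and 1685 TPM over the 4 libraries and Pan2 between 7.05 and 12.4.

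None of the 10 genes passed edgeR's quasi-likelihood test between DKO and WT at an adjusted p of 0.05. Of 12863 tested genes 16 passed, or 0.124% (7 higher, 0.0544%, and 9 lower, 0.07%). At an unadjusted p under 0.05 there were 0 higher and 2 lower, Paip1 and Pabpc4, against 3.82% higher and 4.35% lower, 8.18% together, of all genes. DESeq2 called 0 of the 10 and 1.46% of all genes, and 1 of the 10 and 6.55% of all genes had an unadjusted p under 0.05 by it. In CPM, DKO libraries lay wholly below WT for Pabpc1, Pabpc4, Paip1 and Papola and wholly above for Pan2, and overlapped WT for the other 5. Of all genes in CPM, 18.8% lay wholly below, 19.8% wholly above and 38.6% either way, so 4, 1 and 5 of 10 are not far from the background. In TPM, Pabpc1 overlapped, as did Papola (157 and 190 in DKO, 236 and 175 in WT). Pabpn1 (268 and 271 against 238 and 259) and Paip2 (178 and 212 against 164 and 165) lay wholly above WT in TPM. The overlap thus depends on the scale. The median log2 fold change (DKO minus WT) was −0.07 over the 10 and −0.01 over all tested genes, and 7 of the 10 were below 0 against 51.9% of all genes.

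These directions are relative to the bulk of genes, because TMM scaling sets library sizes as if most genes were equal between libraries. Scaling to total counts moved the median of all genes by 0.34 on the log2 scale, to 0.33, and put 9 of the 10 above 0. With it 2.02% of all genes passed, 194 higher and 66 lower. Scaling to 5 RNA polymerase III transcripts moved the median to 0.90 and put all 10 above 0, while 3.84% of all genes passed, 472 higher and 22 lower. Relative to the median of all genes, 7 of the 10 were lower under TMM, total-count and polymerase III scaling alike. A change of scaling shifts all genes by nearly the same amount, so this count could hardly differ and is no check of the directions. With limma on log2(TPM + 1), 3 of the 10 lay below the median of all genes, and with limma on log2(TPM + 0.1), 5 of the 10. Under TMM, total-count and polymerase III scaling, 0 of the 10 passed.

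**Figure D3:**
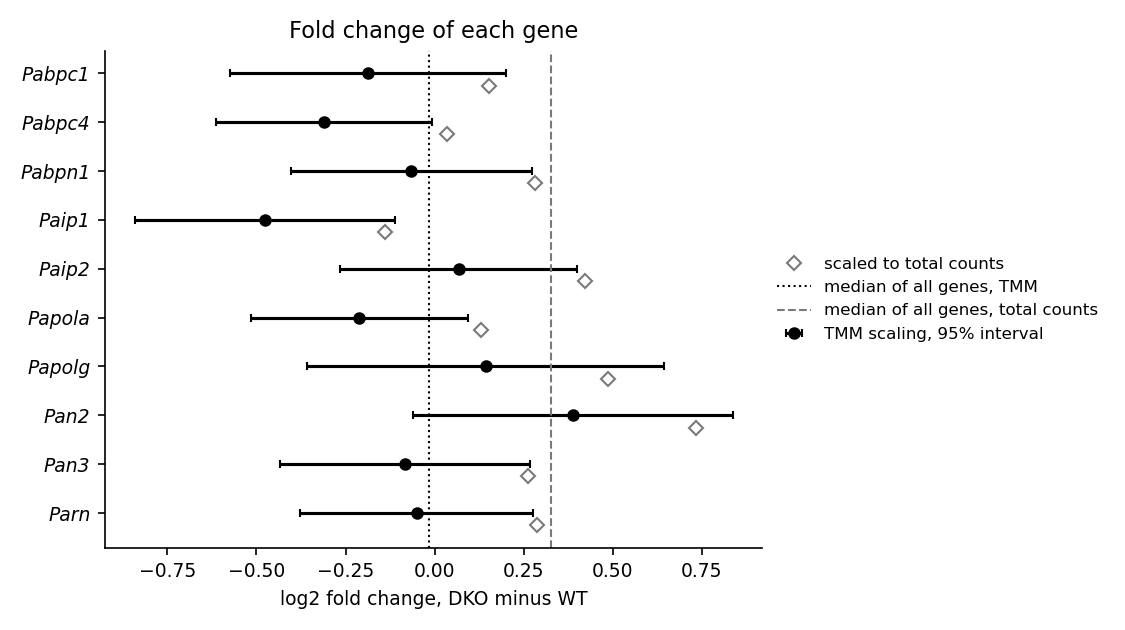
Log2 fold change of each gene, DKO minus WT, with its 95% interval under TMM scaling (black), the value with total-count scaling (open diamonds) and the median of all tested genes under each scaling (dotted and dashed lines). Paip1 at −0.48 and Pabpc4 at −0.31 have intervals that end below 0 before adjustment; total-count scaling shifts every gene to the right, as it does the median, to 0.33.

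Pabpc1 (ENSMUSG00000022283, chromosome 15, 36595661 to 36609668, minus strand) encodes the main cytoplasmic poly(A)-binding protein, which protects tails and joins them to the translation machinery. It had 802 and 718 CPM in DKO and 840 and 890 CPM in WT. Both DKO libraries lay below both WT libraries, with no overlap. This gave a log2 fold change of −0.19 (SE 0.17, 95% interval −0.57 to 0.20, 0.878-fold), with an edgeR quasi-likelihood adjusted p of 0.846. Without DKO replicate 2 the value was −0.098. Of the 31-base words of its transcripts, 18.4% occur in other genes, mostly the processed pseudogenes Gm16580 and Gm8276, which held at most 21.04 counts in any library.

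Pabpc4 (ENSMUSG00000011257, chromosome 4, 123262351 to 123298925, plus strand) encodes the inducible poly(A)-binding protein, first described in activated human T cells. It had 26.3 and 26.1 CPM in DKO and 32.7 and 32.2 CPM in WT. The 2 libraries of each genotype lay close together, and the genotypes did not overlap. DKO minus WT was −0.31 on the log2 scale (SE 0.13, interval −0.61 to −0.01, 0.807-fold; edgeR adjusted p = 0.606) and 0.03 with total-count scaling. Of its 31-base words, 63.3% occur in other genes, 59.8% in the pseudogene Gm10110. Gm10110 was assigned at most 4.49 counts in any library and Pabpc4 itself 373 to 565, so few counts were split off to Gm10110.

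Pabpn1 (ENSMUSG00000022194, chromosome 14, 54892500 to 54898169, plus strand) encodes the nuclear poly(A)-binding protein, which sets tail length during synthesis. It had 55.6 and 51.5 CPM in DKO and 50.4 and 61.7 CPM in WT. The WT libraries were farther apart than the DKO libraries and enclosed them. Its log2 fold change was −0.07 (SE 0.15, interval −0.40 to 0.27), and edgeR's adjusted p was 0.957. A readthrough gene that shares 19.8% of its words, Gm20521, held 9 and 7 counts in DKO and 9 and 16 in WT.

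The regulators of PABPC1 gave the lowest value of the 10 in Paip1 and a value near 0 in Paip2. Paip1 (ENSMUSG00000025451, chromosome 13, 119428601 to 119458218, plus strand) encodes a PABPC1 partner that also binds eIF4A and eIF3 and stimulates translation. It had 18.7 and 19.1 CPM in DKO and 28.9 and 23.7 CPM in WT, or 18.9 ± 0.278 and 26.3 ± 3.62 CPM (SD, n = 2 each). Both DKO libraries were below both WT libraries, and the WT libraries lay farther apart than the DKO libraries. The log2 fold change was −0.48 (SE 0.16, interval −0.84 to −0.11, 0.719-fold; edgeR adjusted p = 0.451), −0.14 with total-count scaling and 0.42 with polymerase III scaling. Under TMM it lay between −0.61 without WT replicate 2 and −0.33 without WT replicate 1, with adjusted p of 0.165 and 0.456.

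Paip2 (ENSMUSG00000037058, chromosome 18, 35598617 to 35617187, plus strand) encodes the repressor that displaces PABPC1 from poly(A) and competes with eIF4G for PABPC1. It had 56.5 and 61.7 CPM in DKO and 51.3 and 61.5 CPM in WT. The DKO and WT libraries overlapped, at a log2 fold change of 0.07 (SE 0.15, interval −0.26 to 0.40; edgeR adjusted p = 0.953).

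Neither polymerase passed the test. Papola (ENSMUSG00000021111, chromosome 12, 105784694 to 105838944, plus strand), the canonical nuclear poly(A) polymerase, had 80.1 and 72.0 CPM in DKO and 84.8 and 91.3 CPM in WT. The DKO libraries lay below the WT libraries without overlap. Its log2 fold change was −0.21 (SE 0.13, interval −0.52 to 0.09, 0.864-fold; edgeR adjusted p = 0.744), and −0.13 without DKO replicate 2. Papolg (ENSMUSG00000020273, chromosome 11, 23862646 to 23895253, minus strand), a nuclear paralog, had 14.95 and 18.4 CPM in DKO and 17.9 and 12.3 CPM in WT. WT held both the second highest and the lowest value, and the genotypes overlapped. Its log2 fold change was 0.14 (SE 0.22, interval −0.36 to 0.64; edgeR adjusted p = 0.929), and without WT replicate 2 it was −0.10.

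Under TMM scaling with all libraries, Pan2 gave the highest value of the 10 and its partner Pan3 one near 0. Without WT replicate 1 Papolg was higher than Pan2 (0.45 against 0.44), and with limma on log2(TPM + 1) Pan2 was at 0.13, below Paip2 (0.37), Pabpn1 (0.30) and others. Pan2 (ENSMUSG00000005682, chromosome 10, 128303335 to 128321358, plus strand) encodes the nuclease subunit of PAN2-PAN3. It had 10.7 and 11.5 CPM in DKO and 8.76 and 8.20 CPM in WT, or 11.1 ± 0.627 and 8.48 ± 0.393 CPM (SD, n = 2 each). Both DKO libraries were above both WT libraries. On the log2 scale DKO exceeded WT by 0.39 (SE 0.20, interval −0.06 to 0.84, 1.31-fold; edgeR adjusted p = 0.665). Its estimated counts, 181 and 250 in DKO and 122 and 95 in WT, were the lowest of the 10 genes.

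Pan3 (ENSMUSG00000029647, chromosome 5, 147430161 to 147548502, plus strand) encodes the pseudokinase subunit that tethers the complex to PABPC. It had 63.1 and 72.9 CPM in DKO and 79.3 and 64.7 CPM in WT. The highest and the second lowest value were both WT. Its log2 fold change was −0.08 (SE 0.15, interval −0.43 to 0.27; edgeR adjusted p = 0.945).

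Parn (ENSMUSG00000022685, chromosome 16, 13537960 to 13668170, minus strand) encodes a cap-stimulated poly(A)-specific ribonuclease that also trims small nucleolar and telomerase RNAs. It had 27.7 and 24.6 CPM in DKO and 26.6 and 27.5 CPM in WT. The DKO libraries enclosed the WT libraries. The log2 fold change was −0.05 (SE 0.14, interval −0.38 to 0.28; edgeR adjusted p = 0.965).

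Taking the 10 intervals under TMM scaling, the lower bounds went down to 0.558-fold for Paip1 and the upper bounds up to 1.79-fold for Pan2. A 2-fold difference in either direction, relative to the bulk of genes, thus lay outside each gene's own interval. This holds for TMM scaling only. With polymerase III scaling, the log2 fold changes of Pan2 (1.31), Papolg (1.04) and Paip2 (1.02) were themselves above 2-fold. Differences within the intervals were not called with 2 libraries a group.

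The 10 genes have 88 annotated transcripts among those quantified, of which 79 had counts, 48 could be tested and 29 held at least 5% of their gene's counts. None of the 48 passed edgeR's test over 27672 transcripts, in which 2 (0.00723%) were called. At an unadjusted p under 0.05 there was 1 of the 48, Paip1-206, against 4.99% of all transcripts. The common biological coefficient of variation was 0.629 for transcripts and 0.220 for genes, so transcript values are far less precise.

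Of the 29, Parn and Paip2 each hold 1 as their gene's sole transcript. For 8 of the other 27 the share of the gene did not overlap between DKO and WT libraries, against 31.2% of all such transcripts. Paip1 has 4 of the 8, and none passed the test. Paip1-202 (1525 bases) took 53.2 and 53.4% of the gene's counts in DKO and 27.9 and 29.4% in WT. Paip1-206 (1233 bases) took 25.8 and 8.05% in DKO and 49.6 and 38.8% in WT. For both, the DKO and WT shares did not overlap. Paip1-201 (2551 bases) took 17.3 and 30.6% in DKO against 10.2 and 16.6% in WT. Paip1-204, annotated as a target of nonsense-mediated decay, took 0 and 3.39% in DKO against 10.3 and 14.7% in WT. The DKO shares were thus above WT for Paip1-202 and Paip1-201 and below WT for Paip1-206 and Paip1-204. Shares within a gene add up to the whole, so a fall in some entails a rise in others. The 4 are therefore not separate observations.

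As levels, Paip1-206 had 82.2 and 33.3 estimated counts in DKO and 199 and 107 in WT, a log2 fold change of −1.87 (SE 0.65, interval −3.60 to −0.14; edgeR adjusted p = 0.952). Paip1-202 had 169 and 221 estimated counts in DKO and 112 and 80.7 in WT, with a log2 fold change of 0.44 (SE 0.25, interval −0.22 to 1.10) and an adjusted p of 0.9999 by edgeR. Paip1-206 lacks a 94-base exon (chromosome 13, 119455696 to 119455789) that Paip1-202 and Paip1-201 contain, and its annotation begins at the start codon. Paip1-202 begins in another, non-coding first exon (119428601 to 119428640). The annotation release tags Paip1-206 as lacking support from mouse transcripts. Their last exons also differ, with 1231 bases in Paip1-201, 404 in Paip1-202 and 218 in Paip1-206. The counts of each transcript are kallisto's division of reads, some of which can fall on exons that the transcripts share.

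**Figure D4:**
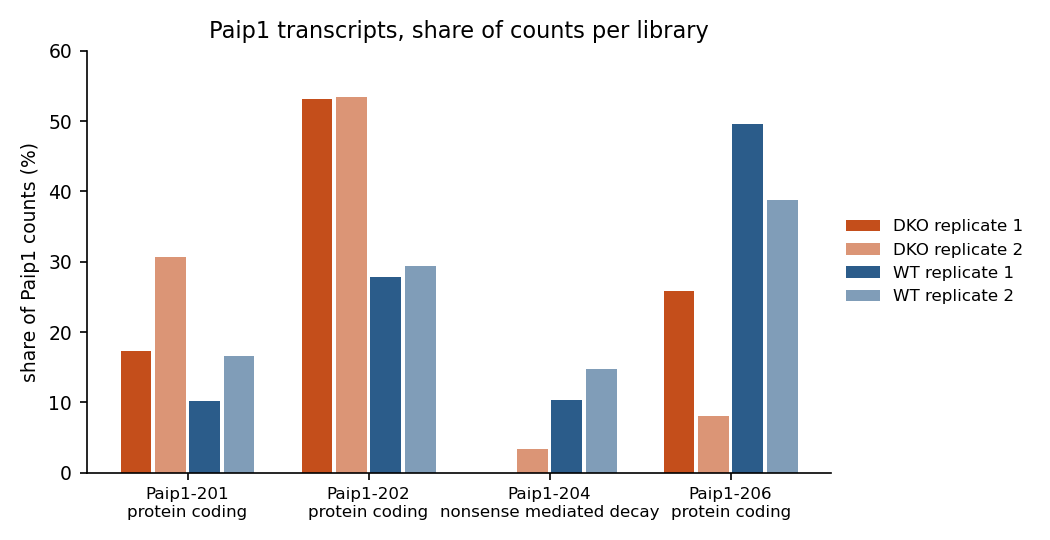
Share of the Paip1 estimated counts in each library (percent) for the 4 transcripts with at least 5% of the gene, DKO bars left of WT bars. Paip1-202 holds 53.2 and 53.4% in DKO and 27.9 and 29.4% in WT, and Paip1-206 25.8 and 8.05% against 49.6 and 38.8%; none of the 4 transcripts passed the test.

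The other genes were either dominated by 1 transcript or spread over several. Pabpc1-201 took 90.4 and 94.2% of Pabpc1 counts in DKO and 91.3 and 92.2% in WT. Pabpc4-204 took 89.1 and 76.5% in DKO and 71.2 and 86.4% in WT, and Pabpn1-201 91.0 and 88.3% against 90.6 and 87.3%. Papolg-201 likewise held 78.7 and 91.8% in DKO and 74.7 and 97.1% in WT, and the shares of these dominant transcripts overlapped between genotypes. The next transcripts were small. Pabpc1-207 held 8.67 and 4.73% in DKO and 6.998 and 7.10% in WT, and Pabpn1-208 5.76 and 6.38% against 2.74 and 9.46%. Pabpc4-208, annotated as a target of nonsense-mediated decay, held 10.4 and 10.6% in DKO and 16.6 and 0% in WT. Papolg-203 held 14.5 and 5.50% in DKO and 7.12 and 2.80% in WT, and Papolg-202 4.32 and 0% against 16.5 and 0.0643%. All of these overlapped between genotypes.

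Papola, Pan2 and Pan3 were spread. Papola-214, a 4356-base transcript annotated as a target of nonsense-mediated decay, was the largest of its gene at 52.4 and 45.6% in DKO and 47.9 and 48.1% in WT. All 5 Papola transcripts of that class summed to 71.4 and 50.9% in DKO and 50.3 and 55.5% in WT, so the class overlapped between genotypes. Within it Papola-201 held 17.9 and 3.78% in DKO and 0 and 6.40% in WT. Of the others, Papola-209 held 9.49 and 20.3% in DKO and 23.9 and 13.4% in WT, Papola-211 8.67 and 7.84% against 11.4 and 8.88%, and Papola-219 2.08 and 6.60% against 9.79 and 4.51%. Only Papola-211, of these Papola transcripts, had shares that did not overlap.

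The Pan2 transcripts rested on few counts. Pan2-201 held 40.6 and 54.8% in DKO and 64.4 and 23.0% in WT, and Pan2-203 40.8 and 26.3% against 0 and 42.7%. Pan2-207 held 5.82 and 5.10% in DKO and 21.1 and 3.39% in WT, Pan2-206 10.3 and 0% against 0 and 24.8%, and Pan2-205 0 and 11.8% against 0 and 6.04%. All 5 overlapped between genotypes. Pan3 had 22 transcripts with counts and 4 with at least 5%. Pan3-208, annotated as a target of nonsense-mediated decay, took 32.9 and 19.8% in DKO and 16.5 and 27.1% in WT, which overlapped. Without overlap, Pan3-209 took 22.3 and 27.5% in DKO against 10.6 and 20.5% in WT, Pan3-201 19.95 and 24.3% against 28.5 and 26.5%, and Pan3-210 10.4 and 11.03% against 16.6 and 11.4%. None of the 4 passed the test (edgeR adjusted p = 0.9999 for each).

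The neighbouring steps of poly(A) metabolism were read from 5 lists of genes. Of their 65 tested genes, 0 passed edgeR's test in either direction and 0 passed with DESeq2. At an unadjusted p under 0.05 there were 2, Tob1 and Noct, by edgeR and 2 by DESeq2, where 8.18% of all genes had such a p by edgeR and 6.55% by DESeq2. Of 10 other poly(A)-binding proteins, 4 were tested, with a median log2 fold change of 0.05. The PABPC paralogs Pabpc1l, Pabpc2, Pabpc4l, Pabpc5 and Pabpc6 had at most 10 counts in any library. The smallest unadjusted p-values there belonged to Larp4b (log2 fold change 0.17), Zc3h14 (−0.13) and Larp4 (0.08), all RNA-binding proteins that act on tails or bind PABPC.

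Of 19 PABPC partners, 18 were tested, with a median log2 fold change of −0.01. Tob1, a relative of Btg1 and Btg2 that binds both PABPC and CNOT7, had 30.7 and 28.8 CPM in DKO and 20.2 and 19.2 CPM in WT. Both DKO libraries were above both WT libraries. Its log2 fold change was 0.59 (SE 0.14, interval 0.27 to 0.92; edgeR adjusted p = 0.228). It passed with total-count scaling (log2 0.93, adjusted p = 0.0231), with polymerase III scaling (1.502, 0.0325) and with no filter on low counts (0.63, 0.0268). Eif4b, a helicase cofactor in initiation (−0.37), and Atxn2, a PABPC-binding protein (−0.28), came next and did not pass.

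Of 12 other terminal nucleotidyltransferases, 9 were tested, with a median of 0.03. Tent5a (log2 fold change 0.44, edgeR adjusted p = 0.660) and Tent5c (0.23), non-canonical poly(A) polymerases, and Tut1, the U6 snRNA uridylyltransferase (0.26), had the smallest p-values. All 18 cleavage and polyadenylation factors were tested, with a median of 0.03. They were led by Nudt21, a subunit of cleavage factor I (−0.34, edgeR adjusted p = 0.629), Cstf2t, a paralog of the cleavage stimulation factor subunit Cstf2 (0.29), and Pcf11 of cleavage factor II (−0.26).

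Of 17 genes listed under other deadenylases, which include CCR4-NOT subunits and relatives of its nucleases, 16 were tested, with a median of 0.01. Noct, or nocturnin, a relative of the CCR4 nucleases, had 179 and 162 CPM in DKO and 343 and 219 CPM in WT. Both DKO libraries were below both WT libraries, which differed widely from each other. Its log2 fold change was −0.72 (SE 0.21, interval −1.21 to −0.23; edgeR adjusted p = 0.363). It passed with no filter on low counts (−0.68, adjusted p = 0.00346) and without WT replicate 2 (−1.01, 0.0375). Cnot7, a catalytic subunit of CCR4-NOT, was at −0.23 and Cnot11, a scaffold-binding subunit, at 0.28.

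**Figure D5:**
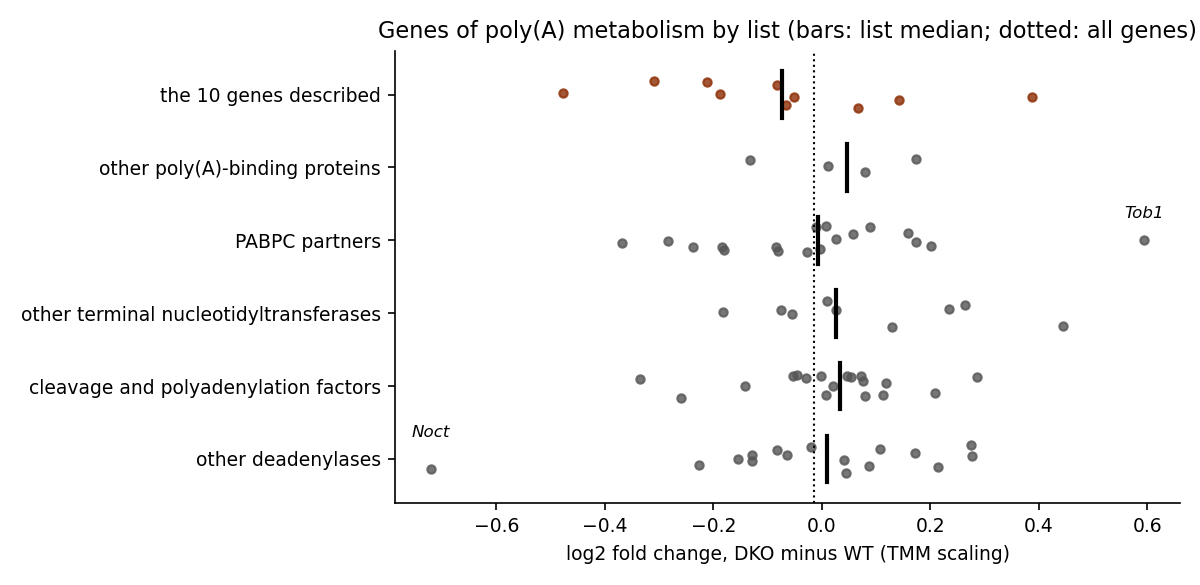
Log2 fold change (DKO minus WT, TMM scaling) of each tested gene, by list, with the list median (bar) and the median of all tested genes (dotted line, −0.01). The list medians lie between −0.07 and 0.05; Tob1 at 0.59 and Noct at −0.72 are the farthest from 0, and neither passed the test.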

How the data were processed

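The submitters' processing notes name kallisto and the builds mm10 and GRCm38. Its version, its strand setting and the transcript annotation were not given in the sources used here. Deposited were estimated counts per transcript, unscaled, per the file headers. The deposited TPM divide by effective length and sum to 1000000 per library, per the file headers and values. Of 126782 transcripts, 125182 (98.7%) were joined to GENCODE M21, and 0.822 to 0.852% of the counts had no gene and were left out. Estimated counts were summed per gene, rounded and tested with edgeR 4.0.16 (R 4.3.3; filterByExpr, TMM, quasi-likelihood, Benjamini-Hochberg at 0.05 over 12863 genes), first tested on simulated data. SE is the log2 fold change over the square root of F. CPM use TMM-scaled totals. By library totals without TMM scaling, 3 counts are 0.168 to 0.216 CPM, and with TMM scaling this floor differs. With it, 1 count was 0.0462 CPM in DKO replicate 2 and 0.0718 CPM in WT replicate 1. Such floors cover counting error only. Without a stated strand setting, overlapping antisense genes cannot be told apart. DESeq2 1.42.0 and limma 3.58.1 on log2(TPM + 1) and log2(TPM + 0.1) were alternatives.

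Named were all 10 genes, Btg1 and Btg2, the 3 genes of each list with the smallest unadjusted p, and transcripts with at least 5% of their gene. Members and lists were chosen with earlier results of these data known. An exact permutation test of 2 against 2 libraries cannot give p below 0.333. The value of 1 marker gene is not reported here.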

Additional observations from a re-analysis of the deposited data

How the results depend on the processing

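Under each of the 15 alternatives 0 of the 10 genes passed, and 0 of their transcripts under the 6 run on transcripts (total counts, the replicate block and leaving out each library). All genes gave 16 calls, against 260 with total counts, 494 with polymerase III scaling, 395 with no filter on low counts, 188 with DESeq2, 48 with protein-coding genes only, 8 with an effective length offset, and 5 and 6 with limma on TPM (pseudocounts 1 and 0.1). Leaving out 1 library gave 9 to 83. Of these, 32 were higher and 16 lower in DKO with protein-coding genes only, and 55 and 133 with DESeq2, against 7 and 9. Tob1 gave the 1 call among PABPC partners with total counts, polymerase III scaling, no filter and the crossed pairing, and Noct the 1 among other deadenylases with no filter, or 0 to 1 with a library left out. DESeq2 called 0 genes of the lists. The causes were not tested.

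With a replicate block, 142 genes and 0 of the 10 passed. Deviations of same-numbered libraries correlated at −0.385 over 12863 genes, and the labels do not say that a number marks a pair. Crossed pairing, added after seeing the data, called 520 genes and 0 of the 10.

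Relative to the median of all genes, log2 fold changes of opposite sign came from limma on TPM with pseudocount 1 for Pabpc1 (0.10), Pabpn1 (0.21), Pan3 (0.067) and Parn (0.071), and with 0.1 for Pabpn1 (0.078) and Parn (0.037). With 1 library left out, ranges crossed 0 for Pabpn1 (−0.22 to 0.10), Papolg (−0.090 to 0.43), Pan3 (−0.21 to 0.057), Parn (−0.13 to 0.057) and Paip2 (−0.074 to 0.21). Pabpc4, Papola, Paip1 and Pan2 kept their sign in these alternatives, though with pseudocount 1 Pan2 was at 0.045 and Paip1 at −0.20. With 1 library in a group, that library is assumed to vary like the others. With 2 libraries a group and as few as 95 counts for Pan2, depth and replication limit the precision.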

Other observations

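Ratios between 6 pairs of partner genes were taken per length after the values were seen, with the lowest and highest of the 10 fold changes (Paip1 and Pan2) among them, and are given as a description without a test. In CPM, single genes did not overlap between genotypes in 38.6% of cases. The ratios are between genes and in TPM, so that share is no background for them. Paip2 to Paip1, repressor to activator of PABPC1, was 3.09 and 3.44 in DKO and 1.66 and 2.62 in WT. Pan3 to Pan2 was 10.4 and 11.4 in DKO and 17.9 and 13.8 in WT, and Papola to Papolg 7.41 and 7.48 in DKO and 9.10 and 13.8 in WT, these 3 without overlap. The ratios of Pabpc1 to Pabpc4, to Pabpn1 and to Paip2 overlapped, the first at 43.5 and 32.8 in DKO and 29.5 and 33.4 in WT.

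The Pabpc4 introns hold 2 genes annotated as small nucleolar RNAs of 131 bases, chosen after their values were seen. Gm25788 (chromosome 4, 123291344 to 123291474) had 30.02 and 13.3 CPM in DKO and 47.9 and 114 CPM in WT. Gm22154 (123293152 to 123293282) had 30.9 and 15.4 CPM in DKO and 45.3 and 105 CPM in WT. In both genes the DKO libraries lay below the WT libraries. Neither passed edgeR's quasi-likelihood test (log2 fold changes −1.91 and −1.70, adjusted p = 0.690 and 0.689), and neither overlaps an exon of Pabpc4. Over the 4 libraries, the CPM of both small RNAs fell as the implied mean fragment length rose (133 and 142 bases in DKO, 124 and 120 in WT). Their 131 bases are near that length, and its part in these values was not tested.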
